A study of Mus musculus with 18 samples.

Results

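The multiciliated cell program was described across 18 cultures of mouse lung organoids and tumoroids as 52 genes out of the 46603 measured. The members were taken from a list of ciliogenesis regulators and motile axoneme genes. Its rule names no measured level, but the list was chosen with earlier results of these data known. Every member was matched to a gene of the table by its symbol. They comprised 7 transcriptional or cell cycle regulators, 6 genes of the outer dynein arm, 11 of the inner dynein arms, 3 for a dynein light chain and arm assembly, 4 of the axonemal ruler and nexin-dynein regulatory complex, 3 of the radial spokes, 4 of the central pair, 9 of the doublet microtubules and 5 other cilium genes.

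All donor mice carried human EGFR with the T790M and L858R mutations (EGFR TL), knocked into the Col1a1 locus under a CAG promoter and silent behind a lox-stop-lox cassette. Tracheal NGFR+ basal and NGFR- club cells, distal Sca1+ bronchioalveolar stem cells (BASCs) and Sca1- alveolar type II (AT2) cells were sorted, infected with Ad-GFP as control or with Ad-Cre to release the transgene, and grown in Matrigel with lung mesenchymal and endothelial support cells. Each of these 4 populations gave 1 Ad-GFP and 1 Ad-Cre culture, the BASC pair being of mixed morphology, and 2 further Ad-Cre cultures held BASC organoids picked by hand as alveolar or bronchiolar. Organoids of the Ad-Cre arm were transplanted into nude (Foxn1 Nu/Nu) mice. Tumoroids regrown from the grafts were derived from AT2 cells (n = 3), mixed BASC organoids (n = 3) or bronchiolar BASC organoids (n = 1). A further tumoroid (n = 1) came from an autochthonous tumor. In the paper such tumors were induced in EGFR TL mice by intranasal adeno-Cre, without sorting or transplantation. No organoid condition was repeated, so the 4 tracheal, 4 BASC and 2 AT2 cultures stand in for replicates although they differ in sort, morphology or virus, and p-values measure the spread among such cultures. The AT2-derived tumoroids also carry an NGFR-negative sort label and were placed by their AT2 origin. Some tumoroid names share a number, 1 of them between the bronchiolar and a mixed BASC tumoroid, and may come from the same mouse.

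Multiciliated cells cover the conducting airway with motile cilia that move mucus, and arise there from club and basal cells. A cell entering this fate switches on Gmnc and Mcidas, which with E2F factors start the amplification of centrioles, and then Myb, Trp73, the RFX factors and Foxj1, the forkhead factor that drives the genes of the motile axoneme. The axoneme is a ring of doublet microtubules around a central pair. Outer and inner dynein arms slide the doublets, and the nexin-dynein regulatory complex, the radial spokes and the central pair turn the sliding into a regulated beat. AT2 cells of the alveolus make surfactant and carry no motile cilia.

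RFX factors bind the X-box, an inverted repeat found in the promoters of many cilium genes. In the RefSeq table of GRCm38.p6 promoters, 45 of the 52 members had an entry. The 250 bases before the start were searched on both strands for the X-box, spelled GTTNCC, 0 to 3 bases and GGNAAC. It was found in 3 of 45 members (6.67%) and in 0.788% of 27018 genes. The 3 members are shown because they hold the complete motif, with the X-box in capitals.

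Pifo (chr3:106001498-106001557, minus strand): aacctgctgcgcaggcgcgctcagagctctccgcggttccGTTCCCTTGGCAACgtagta
Ccdc151 (chr9:22002635-22002708, minus strand): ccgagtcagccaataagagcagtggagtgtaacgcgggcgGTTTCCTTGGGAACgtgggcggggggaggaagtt
Fam183b (chr11:58801961-58802016, minus strand): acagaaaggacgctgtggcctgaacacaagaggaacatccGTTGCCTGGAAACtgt

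A single arm of the repeat, GTTGCC or its complement GGCAAC, was more frequent, in 20 of 45 members (44.4%) against 11.8% of all genes. This count includes Pifo and Fam183b, whose X-box contains such an arm. The arm was found for 15 of 48 genes (31.2%) of a list of other motile cilium genes and for 5 of 19 genes (26.3%) of intraflagellar transport. A forkhead motif, TGTTTAC, was in 3 members (6.67%, against 3.54% of all genes) and an E2F motif, GGCGGGAA, in 1 member, Trp73 (2.22%, against 2.12%). Hydin, Mcidas and Sntn are shown as examples from 3 roles that hold the single arm, and Sntn also holds the forkhead motif. Their matches are in capitals.

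Hydin (chr8:110266934-110266976, plus strand): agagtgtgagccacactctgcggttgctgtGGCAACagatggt
Mcidas (chr13:112993643-112993708, plus strand): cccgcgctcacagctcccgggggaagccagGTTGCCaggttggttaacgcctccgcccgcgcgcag
Sntn (chr14:13670626-13670845, plus strand): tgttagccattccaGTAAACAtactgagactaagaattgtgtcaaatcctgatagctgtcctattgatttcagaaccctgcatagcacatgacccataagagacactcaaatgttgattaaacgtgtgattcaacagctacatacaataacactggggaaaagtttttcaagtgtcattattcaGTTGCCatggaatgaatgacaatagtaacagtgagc

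In the GENCODE vM21 annotation the Pifo stretch lay in an intron of Pifo, the Hydin stretch overlapped an exon of the antisense gene Gm26832, and the other stretches lay outside exons. A match shows that the letters are present and not that a factor binds there.

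Expected counts summed to between 27772660 and 97191624 in the 10 organoid libraries and to between 15327265 and 23355938 in the 8 tumoroid libraries. All organoids were sequenced on a HiSeq instrument and all tumoroids on a DNBSEQ instrument, so platform and tumoroid state cannot be told apart. Levels are given as CPM, expected counts scaled to library size, after TMM scaling over the 18 samples, and the score of a sample is the mean log2 CPM of the members. The labels were checked against cell type markers. The 5 AT2 markers, Sftpc among them, summed to between 38480 and 44210 CPM in the AT2 organoids and to between 115 and 167 CPM in the tracheal ones, where the 4 basal markers summed to between 3113 and 3942 CPM. Scgb1a1, the defining club cell gene, was at only 1.6 to 4.4 CPM in the tracheal organoids of either sort, although the 4 club markers together summed to between 2546 and 4400 CPM there. Endothelial markers summed to below 1 CPM in every organoid culture.

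Foxj1, the defining marker of multiciliated cells, lies on the minus strand of chromosome 11 (116330704 to 116335399, GRCm38). It was at 257 and 293 CPM in the NGFR- tracheal organoids with Ad-GFP and Ad-Cre, and at 298 and 255 CPM in the NGFR+ ones. In AT2 organoids it was at 1.38 CPM with Ad-GFP and 1.79 CPM with Ad-Cre. The BASC organoids spanned the range, from 491 CPM in the mixed Ad-GFP culture through 138 CPM in mixed Ad-Cre and 106 CPM in bronchiolar Ad-Cre organoids to 20.8 CPM in alveolar Ad-Cre organoids. Tracheal and BASC values overlapped, and both lay entirely above the AT2 values. Among tumoroids Foxj1 was at 1.07, 1.32 and 1.87 CPM in the AT2-derived ones, 4.86, 17.3 and 6.11 CPM in the mixed BASC-derived ones, 2.44 CPM in the autochthonous one and 222 CPM in the bronchiolar BASC-derived one.

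The other 51 members moved broadly with Foxj1 in the organoids and were furthest apart from it in the bronchiolar tumoroid. Their score was between 4.86 and 4.97 in the 4 tracheal cultures and at -0.90 and -1.16 in the AT2 organoids. In the BASC organoids it was 5.82 for mixed Ad-GFP, 3.57 for mixed Ad-Cre, 2.36 for bronchiolar and 1.81 for alveolar cultures. In the bronchiolar tumoroid it was -1.23, inside the range of the 6 AT2- and mixed BASC-derived tumoroids (-1.81 to -0.92), while Foxj1 itself was at 80.4% of the tracheal mean. A smaller gap was present in the cultures most like it. In mixed BASC-derived tumoroids 1, 2 and 3, Foxj1 was at 1.76%, 6.27% and 2.21% of the tracheal mean, and the median of the others at 0.653%, 0.745% and 0.763%. In bronchiolar BASC organoids these were 38.4% and 16.1%. All 52 members had more than 3 counts in each tracheal and each BASC culture, while 8 and 11 members had at most 3 counts in the AT2 organoids, and between 17 and 24 in each tumoroid.

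**Figure D1:**
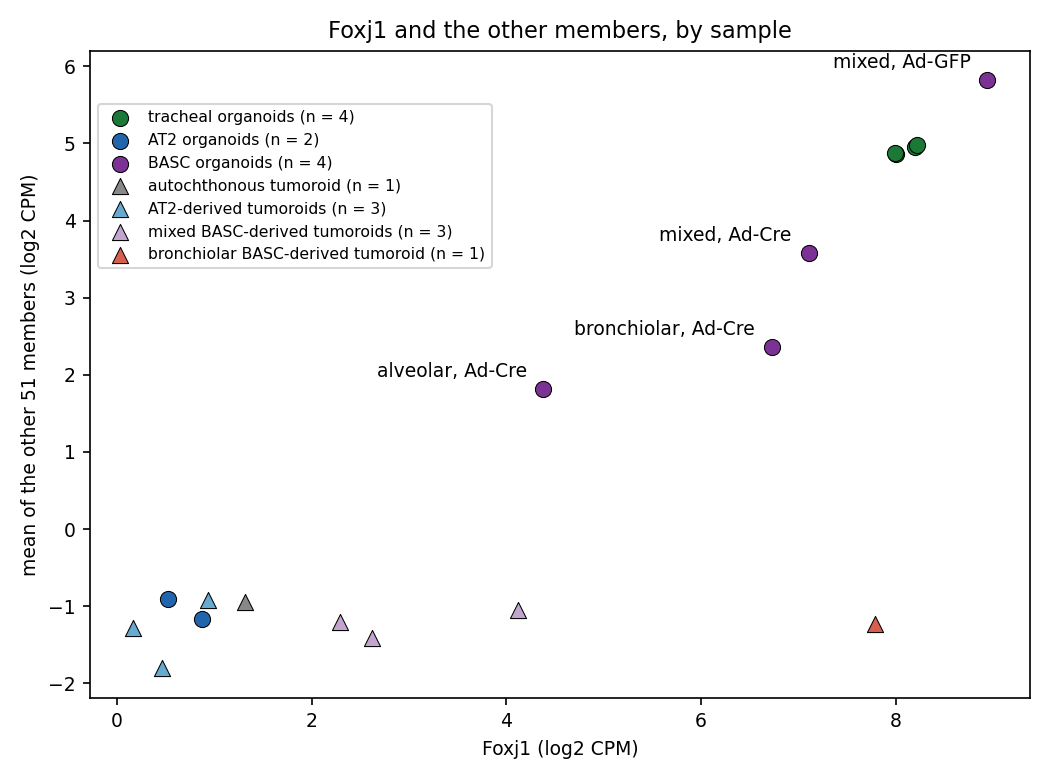
Foxj1 (log2 CPM, x axis) against the mean log2 CPM of the other 51 members (y axis), 1 point per sample, circles for organoids and triangles for tumoroids. The organoids rise together on both axes, while the bronchiolar BASC-derived tumoroid has 222 CPM of Foxj1 and a score of -1.23 for the other members.

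**Figure D2:**
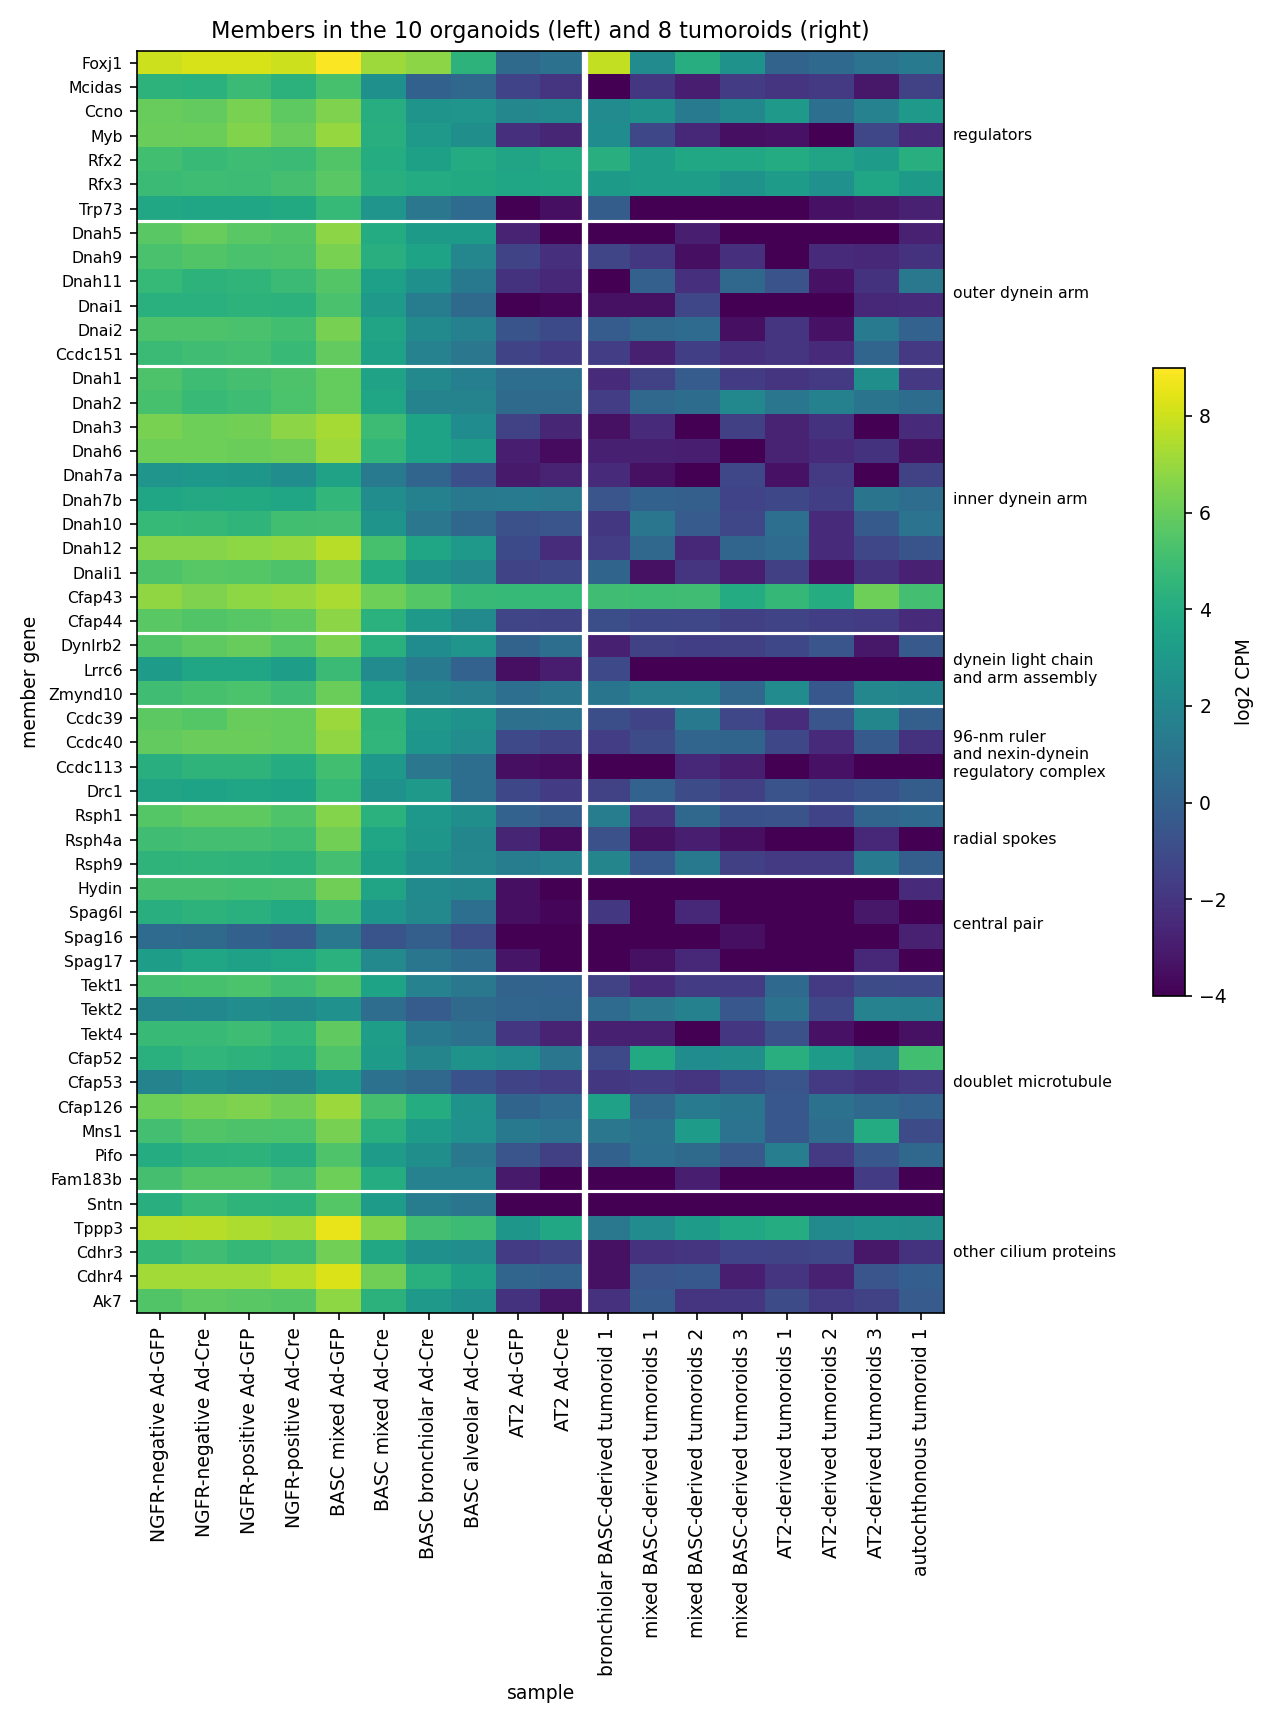
Level of each of the 52 members (rows, grouped by role) in each of the 18 samples (columns), with color for log2 CPM from -4 or lower to 9. The tracheal and mixed Ad-GFP BASC columns are high across all roles, and Foxj1 has the highest level in the bronchiolar tumoroid column.

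Compared with AT2 organoids, the tracheal organoids were higher in 47 of 52 members and lower in 0 at an adjusted p below 0.05 (edgeR quasi-likelihood test, n = 4 against 2). Across all 19349 genes tested, 21.9% were called higher and 23.4% lower, and DESeq2 called 9552 genes over all. The median log2 fold change of the members was 6.43, with a range from 1.13 to 10.21 over the 46 members with more than 3 counts in an AT2 library, against 0.07 over all genes. Foxj1 rose by 7.41 on the log2 scale (SE 1.297, adjusted p = 0.00739 by edgeR). In bulk cultures, fewer multiciliated cells and less RNA per cell cannot be told apart. DESeq2 called 35 members. Leaving out either AT2 culture lowered the number of members called by edgeR, in a fit with a single AT2 library.

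The 5 members that did not pass had log2 differences of 2.50 or less. The RFX factors Rfx2 and Rfx3 were at 12.0 to 15.1 CPM in AT2 organoids and at 28.3 to 35.8 CPM in tracheal ones, a log2 difference of 1.13 (adjusted p = 0.0932 by edgeR) and 1.25 (0.0600). The groups did not overlap for either gene, but the share of all genes without overlap is not given. The other 3 were Dnah7b (log2 2.50, adjusted p = 0.0517), an inner arm heavy chain, and the doublet proteins Tekt2 (1.98, 0.0550) and Cfap52 (2.50, 0.0609). The remaining regulators all rose. Mcidas was at 19.7 to 29.0 CPM in tracheal organoids and at 0.34 and 0.19 CPM in AT2 organoids. Trp73, the regulator with the lowest tracheal TPM, was at 13.5, 13.01, 12.3 and 14.6 CPM in the tracheal cultures in the order given for Foxj1, at 0 and 0.043 CPM in the AT2 cultures and at 26.3, 6.86, 2.20 and 1.43 CPM in the mixed Ad-GFP, mixed Ad-Cre, bronchiolar and alveolar BASC cultures. It was at 0 to 0.062 CPM in the 6 alveolar tumoroids (median 0), a name used here for the AT2- and mixed BASC-derived ones, at 0.092 CPM in the autochthonous and at 0.85 CPM in the bronchiolar tumoroid.

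All 6 outer arm members rose, with a median log2 fold change of 7.26. Dnai2, an intermediate chain and the outer arm member with the highest tracheal TPM, was at 40.7, 40.9, 38.2 and 33.8 CPM in the tracheal cultures and at 0.60 and 0.42 CPM in the AT2 cultures. In BASC organoids Dnai2 was at 81.8, 11.9, 4.40 and 3.29 CPM (mixed Ad-GFP, mixed Ad-Cre, bronchiolar, alveolar), and in the bronchiolar tumoroid at 0.81 CPM, within the alveolar tumoroid range of 0.042 to 2.61 CPM. Dnah5, the heavy chain often mutated in primary ciliary dyskinesia, had the lowest tracheal TPM of the group. It was at 50.7, 64.1, 51.8 and 44.2 CPM in tracheal and at 0.098 and 0 CPM in AT2 organoids. In the BASC organoids, in the same order as for Dnai2, it was at 107, 16.1, 8.46 and 8.36 CPM. In the tumoroids Dnah5 was at 0 in the bronchiolar one and in 5 of 6 alveolar ones, and at 0.083 CPM in the remaining alveolar one.

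Of the 11 inner arm members 10 rose, Dnah7b being the exception. Cfap43, which tethers inner arm dyneins, had the smallest difference of those that rose. It was at 115, 90.1, 109 and 122 CPM in tracheal organoids and at 26.1 and 26.2 CPM in AT2 organoids (log2 fold change 2.03, adjusted p = 0.0264 by edgeR), and it remained at 16.1 to 69.6 CPM (median 28.0) in the alveolar tumoroids. Dnah7a, a heavy chain, was at 6.89, 7.49, 7.45 and 5.197 CPM in tracheal and at 0.070 and 0.11 CPM in AT2 cultures. Dnah7a shares 29.4% of its 50-base words with Dnah7b, so the split of reads between these copies is uncertain. Dynlrb2, a light chain, was at 44.9, 54.2, 62.3 and 48.1 CPM in tracheal and 1.06 and 1.55 CPM in AT2 organoids, and Lrrc6, an arm assembly factor, at 9.05, 12.6, 12.5 and 9.78 CPM and at 0.042 and 0.075 CPM. Every gene of that role rose, Zmynd10 being the third.

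All 4 members of the ruler and nexin-dynein regulatory complex rose, as did the 3 radial spoke members. Ccdc40, which with Ccdc39 sets the spacing of spokes and arms, was at 58.7, 64.1, 67.3 and 60.7 CPM in tracheal and at 0.41 and 0.34 CPM in AT2 organoids. Drc1, a subunit of the nexin link, was at 11.8, 11.4, 12.4 and 11.6 CPM against 0.39 and 0.25 CPM. The spoke head protein Rsph1 was at 48.3, 54.9, 54.0 and 43.5 CPM in tracheal and at 1.01 and 0.76 CPM in AT2 organoids. Rsph4a, also of the spoke head, was at 32.6, 34.9, 35.2 and 31.4 CPM against 0.11 and 0.032 CPM. Within the tracheal group these values differed by less than 1.5-fold.

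The central pair had the largest median difference of the role groups, a log2 fold change of 8.87 (8.81 with 3 of them at their bounds), and all 4 members rose. Spag6l was at 17.8, 20.9, 19.0 and 15.2 CPM in tracheal organoids and had at most 3 counts in both AT2 libraries. Spag16 was the least abundant member, at 1.42, 1.38, 0.98 and 0.78 CPM, and was at least 30.8-fold lower in AT2 organoids. Hydin, a large projection protein of the central pair, was at 33.7 to 35.7 CPM in tracheal organoids and at least 948-fold lower in AT2 organoids, the bound being 3 counts per library. Dnai1, Ccdc113 and Sntn also had at most 3 counts in both AT2 libraries. With these 6 genes at their bounds the median log2 fold of the members was 6.47.

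Of the 9 doublet members 7 rose, and all 5 other cilium genes rose. Cfap126, which takes part in the docking and positioning of basal bodies, was at 70.1, 80.5, 88.5 and 72.8 CPM in tracheal and at 1.08 and 1.41 CPM in AT2 organoids. Cfap53 was at 3.41, 5.18, 4.15 and 3.87 CPM against 0.35 and 0.27 CPM. Tppp3, a tubulin polymerization promoting protein, was the most abundant member per length, at 326 TPM in the mean of the tracheal cultures (SD 48.0), and was at 185, 198, 168 and 144 CPM there against 7.36 and 13.8 CPM in AT2 organoids. Cdhr3, a cadherin on the surface of ciliated cells, was at 25.1, 31.8, 25.4 and 29.9 CPM against 0.25 and 0.35 CPM. No tracheal value of any of these genes came within 5-fold of an AT2 value.

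The rest of the ciliary machinery was read from lists that do not overlap the members. Of 59 other motile cilium genes 52 rose and 0 fell (median log2 fold change 5.01, or 5.05 with 7 genes at their bounds). Cfap161, Dnai3 and Cfap221, which had the largest fitted changes, had at most 1 count in either AT2 library and were at least 515-fold, 644-fold and 139.5-fold higher in tracheal organoids. Of 13 genes of centriole amplification and its upstream regulators 10 rose and 0 fell (median 1.83, or 1.86 with 3 genes at their bounds). Here the regulators Gmnc (24 CPM in the tracheal mean, 0 counts in both AT2 libraries, at least 640-fold) and Foxn4 (21.2 CPM, at least 572-fold) led with Deup1, the scaffold of the deuterosome on which extra centrioles form (log2 fold change 9.33, SE 1.97). Of 23 intraflagellar transport genes, which serve primary as well as motile cilia, 4 rose and 1 fell (median 0.89), with Traf3ip1 (1.82, SE 0.58), Ift22 (1.64, SE 0.50) and Ift43 (1.53, SE 0.37) having the largest changes and Ift20 falling by 0.70. Read against the 21.9% of all genes called higher, the share called higher was above it for the members, for the other motile cilium genes and for the centriole list, and near it for intraflagellar transport.

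**Figure D3:**
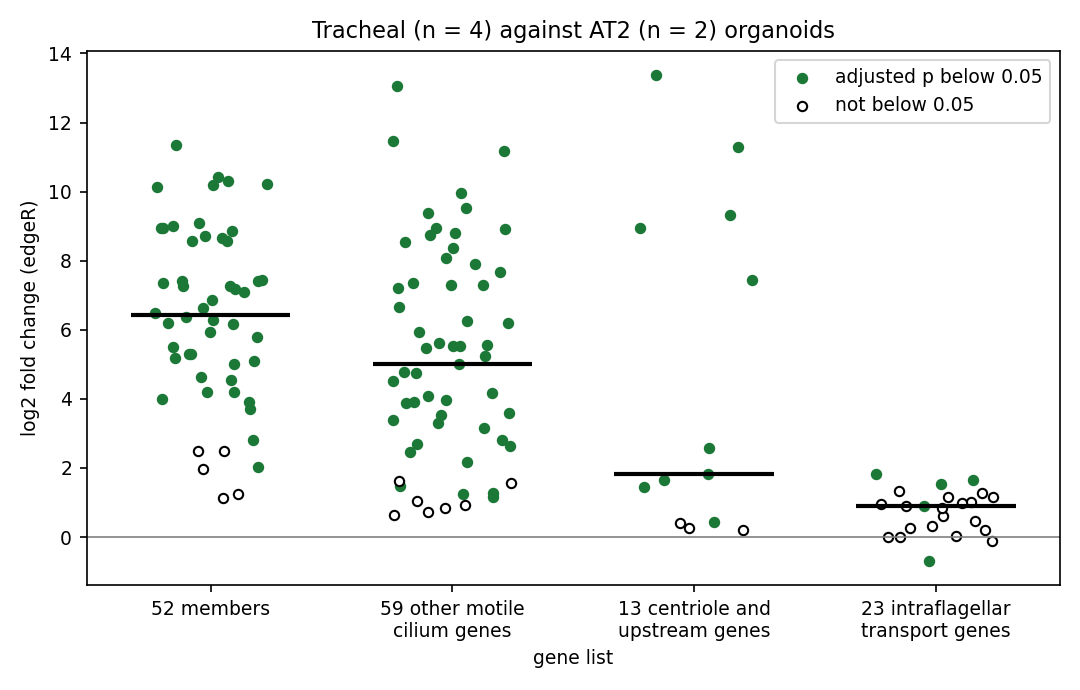
Log2 fold change of tracheal (n = 4) against AT2 (n = 2) organoids for each gene of the 4 lists, filled where the adjusted p was below 0.05 (edgeR), with a bar at each list's median. The medians are 6.43 for the members, 5.01 for other motile cilium genes, 1.83 for centriole and upstream genes and 0.89 for intraflagellar transport.

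BASC organoids held the program at levels that differed from culture to culture. Against AT2 organoids all 52 members had positive log2 differences, with a median of 6.06 against 0.04 over all genes. However, edgeR called 0 of them (0% of all genes higher and 0% lower). At an unadjusted p below 0.05 there were 47 members and 6594 of 19349 genes. DESeq2 called 32 members and 4429 genes over all. Without the mixed Ad-GFP culture edgeR called 36 members and without the alveolar culture 48. Calls over all genes are not given for fits with a culture left out. For Foxj1 the log2 difference was 6.86 (adjusted p = 0.0571 by edgeR). Tracheal organoids lay above BASC organoids by a median of 0.61, with 0 members called (0.0103% of all genes higher, 0% lower). At an unadjusted p below 0.05 there were 0 members and 3764 of 19349 genes, and DESeq2 called 0 members and 1303 genes over all. The mixed Ad-GFP culture decided this comparison, since without it 49 members were called higher in tracheal organoids.

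The spread among BASC cultures ran through the whole program. Relative to the tracheal mean, the other 51 members had a median level of 191% in mixed Ad-GFP, 38.5% in mixed Ad-Cre, 16.1% in bronchiolar and 9.97% in alveolar organoids, and Foxj1 was at 178%, 49.9%, 38.4% and 7.53%. Markers of other cells moved too. The 4 basal markers summed to 2647, 1989, 1018 and 163 CPM in that order, the 4 club markers to 5193, 3480, 3444 and 708 CPM, and the 5 AT2 markers to 578, 2252, 2199 and 41810 CPM. Their part in the member levels was not tested.

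The alveolar BASC culture had AT2 markers within the range of the AT2 organoids, basal markers at 163 CPM against 5.69 and 16.2 CPM there, and club markers at 708 CPM against 301 and 608 CPM. Of 52 members 41 were at least 2-fold higher there than in the mean of the AT2 organoids (8.33% of all genes), with a median ratio of 8.40. Foxj1 was 13.1-fold higher and Dnah5 171-fold, with 1 alveolar library and no test, and the part of the basal and club markers was not tested. Between bronchiolar and alveolar BASC organoids, 12 members were at least 2-fold higher in the bronchiolar culture (14.2% of all genes) and 0 lower (15.7%), with a median log2 ratio of 0.50. Drc1 (5.14-fold), Foxj1 (5.11-fold), Dnah9 (2.91-fold) and Cfap126 (2.73-fold) differed most. Mcidas was at 0.97 CPM in the bronchiolar and at 1.27 CPM in the alveolar culture, and Ccno at 6.53 and 6.83 CPM.

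Ad-Cre, which releases the EGFR transgene, was compared with Ad-GFP in the 4 matched pairs of cultures. All 52 members had negative log2 differences with a median of -0.68 (-0.005 over all genes), but 0 were called (0% of all genes higher, 0% lower). At an unadjusted p below 0.05 edgeR had 0 members and 396 of 19178 genes. DESeq2 called 0 members and 5 genes over all, with 7 members at an unadjusted p below 0.05. The pairs differed in size and sign. The score changed by 0.091 in the NGFR- pair, by -0.107 in the NGFR+ pair, by -0.245 in the AT2 pair and by -2.24 in the mixed BASC pair.

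In the mixed BASC pair all 52 members were at least 2-fold lower with Ad-Cre (12.7% of all genes), by a median of 4.78-fold. No test is possible within 1 pair. Myb, with the largest ratio, was at 124 CPM with Ad-GFP and 17.8 CPM with Ad-Cre. Mcidas was at 37.8 and 5.66 CPM, Dnai2 at 81.8 and 11.9 CPM, and Foxj1 at 491 and 138 CPM. Cfap43 had the smallest ratio, at 166 and 69.8 CPM. In the same pair the AT2 markers were at 578 CPM with Ad-GFP and 2252 CPM with Ad-Cre, and the 5 fibroblast markers of the support cells at 1916 and 4306 CPM. The sums of basal markers (2647 and 1989 CPM) and club markers (5193 and 3480 CPM) differed by less than 1.5-fold, but single markers differed more and in both directions. With Ad-GFP and Ad-Cre, Scgb1a1 had 17004 and 35082 counts, Scgb3a1 86916 and 86091, Scgb3a2 57644 and 36059, and Cyp2f2 157408 and 59860. Krt5, which differed most of the basal markers, had 101233 and 63494. Effective library sizes were 61427267 and 62381479. The part of any of these in the members' difference was not tested.

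In the tracheal pairs 0 of 52 members were at least 2-fold lower with Ad-Cre in NGFR- cells (4.34% of all genes) and 0 in NGFR+ cells (2.47%). In the AT2 pair 10 of the 46 members with a ratio were (6% of all genes), and all 10 were at 4.95 CPM or lower in both cultures. A test of the difference between distal and tracheal pairs gave a median log2 difference of -1.69 for the members, with 0 called (0% of all genes higher, 0% lower). At an unadjusted p below 0.05 there were 24 members and 890 of 19178 genes, and DESeq2 called 12 members and 137 genes over all. This result rested on single libraries, since leaving out any AT2 or mixed BASC culture raised the number of members called above 0. Calls over all genes are not given for those fits.

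**Figure D4:**
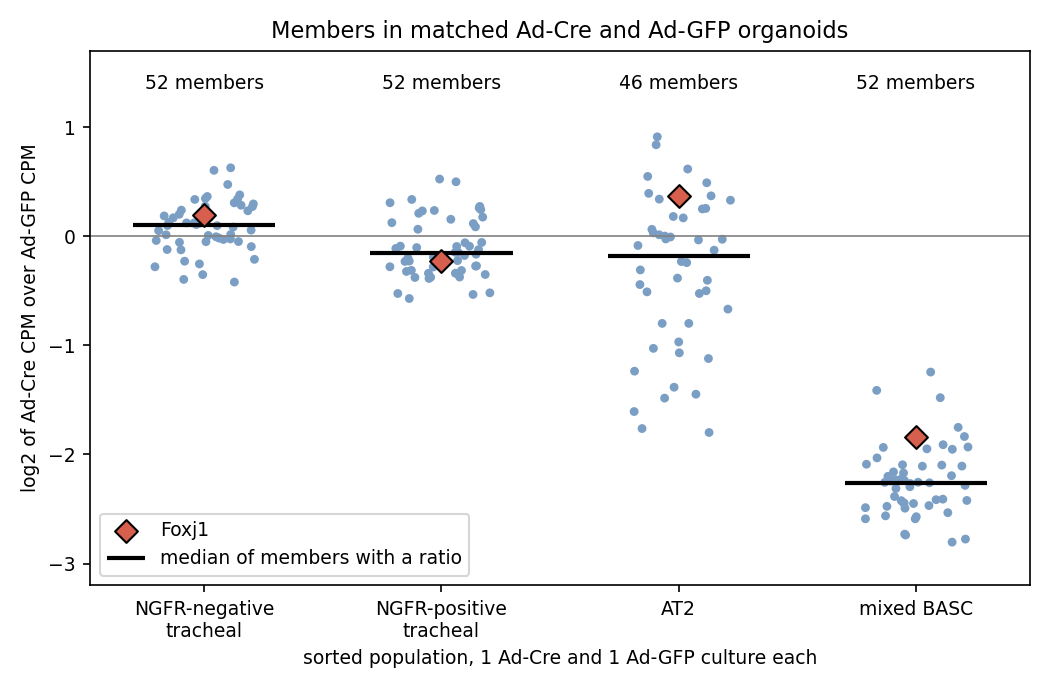
Log2 ratio of Ad-Cre to Ad-GFP CPM for each member in the 4 matched pairs, with Foxj1 as a diamond and a bar at the median. The medians are 0.10 and -0.16 in the tracheal pairs, -0.18 in AT2 (46 members with a ratio) and -2.26 in mixed BASC organoids.

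The 2 tracheal sorts were compared over both viruses. Between NGFR- and NGFR+ organoids (n = 2 against 2) 0 members were called (0.186% of all genes higher, 0.0812% lower), with a median log2 difference of -0.02. At an unadjusted p below 0.05 there were 2 members, Ccdc39 (-0.31) and Tppp3 (0.30), and 1413 of 17234 genes. DESeq2 called 0 members and 218 genes over all, with 2 members at an unadjusted p below 0.05. The mean of the 52 members per culture had an SD of 0.058 log2 units over the 4 tracheal cultures. Krt5, a basal keratin, was at 1866 to 2398 CPM in organoids of either sort.

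In tumoroids the program was near the limit of detection. Between AT2-derived and mixed BASC-derived tumoroids (n = 3 against 3), 24 of 52 members passed the filter on low counts and 0 were called (0% of all genes higher, 0% lower). Foxj1 alone of the members had an unadjusted p below 0.05 (144 of 15470 genes by edgeR), also with DESeq2, which called 0 members and 7 genes over all. Its log2 difference was -2.71 (SE 0.63, adjusted p = 1.00 by edgeR). The 3 AT2-derived values lay below all 3 mixed BASC-derived values, but the share of all genes without overlap is not given. The mixed BASC-derived tumoroid with the highest Foxj1, 17.3 CPM, also had the highest sum of club markers (1206 CPM) and of basal markers (24.9 CPM) among the 6 alveolar tumoroids, and their part in the Foxj1 level was not tested. Sntn was at 0 counts in all 8 tumoroids, and Hydin in all but the autochthonous one, where it was at 0.14 CPM. Cfap43, Rfx2, Rfx3, Cfap52 and Tppp3 stayed above 4 CPM in each of the 6 alveolar tumoroids. Cfap52 was at 33.9 CPM in the autochthonous tumoroid and 4.35 to 18.2 CPM (median 7.34) in the alveolar ones, against a tracheal mean of 20.4 CPM (SD 2.5, n = 4).

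The bronchiolar BASC-derived tumoroid expressed Foxj1 without most of the program that Foxj1 accompanied in the organoids. A gene was counted as different there when it lay outside the range of the 6 alveolar tumoroids and at least 2-fold from their mean, and with 1 library no test was made. Of 52 members 45 had more than 3 counts in some library and were compared, 10 were higher (9.01% of all genes) and 7 lower (8.1%). Foxj1 was 40.9-fold higher, Myb 30.2-fold (4.96 CPM against 0 to 0.40 CPM), Dnali1 7.48-fold, Cfap126 6.80-fold (10.7 CPM against 0.68 to 2.48 CPM) and Trp73 at least 5.94-fold. The others were the 3 radial spoke genes, with Rsph1 at 4.16-fold, Rsph4a at least 3.75-fold and Rsph9 3.52-fold, and Dnah9 (3.08-fold) and Lrrc6 (at least 2.82-fold). Except for Foxj1, Cfap126 and Myb these genes were at 0.36 to 3.76 CPM. The 7 lower members were Dnah11, Dnah1, Dnah2, Cfap52, Tppp3, Cdhr4 and Ak7.

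Set against the tracheal organoids, the same tumoroid had 80.4% of the mean Foxj1 level and a median of 0.881% over the other 51 members. Of the 52 members 9 were at 0 counts, 32 were below 2% of the tracheal mean and 7 above 10%. Apart from Foxj1 the 7 were Rfx2 (57.5%), Tekt2 (32.1%), Cfap43 (29.6%), Rfx3 (26.5%), Rsph9 (17.3%) and Cfap126 (13.7%), of which Rfx2, Rfx3, Tekt2 and Cfap43 were within the range of the alveolar tumoroids or under 2-fold from their mean. Mcidas was at 0 counts, Ccno, which acts in centriole amplification, at 7.34% and Myb at 6.88%. Among the 13 centriole and upstream genes, 5 were below 2% of the tracheal mean, including Gmnc at 3 counts and Foxn4 and Deup1 at 0. These 3 named genes were at 0 in every alveolar tumoroid as well. In the bronchiolar tumoroid the other 8 were above 10%, including E2f4 at 104.9%, E2f5 at 68.75% and Plk4 at 34.31%. Club markers summed to 4989 CPM and basal markers to 1734 CPM in this tumoroid, above their ranges of 59.2 to 1206 and 1.17 to 24.9 CPM in the alveolar tumoroids, and AT2 markers to 6181 CPM.

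Other motile cilium genes in the bronchiolar tumoroid were read in the same way. Of 52 compared, 18 were above the alveolar tumoroid range and 2-fold from the mean and 2 were below, against the 9.01% and 8.1% of all genes, and 27 of the 59 in the list exceeded 10% of the tracheal mean. Among the 18, Nme5 (13.5 CPM, 43.03% of the tracheal mean), Capsl (13.9 CPM, 26.3%) and Kif27 (9.26 CPM, 51.5%) had the largest ratios. These were 16.2-fold, 13.3-fold and 10.8-fold, and the genes were chosen after their values were seen. The 27 also include genes under 2-fold from the alveolar tumoroid mean, such as Gas8 (24.2 against 17.2 CPM) and Tubb4b (373 against 268 CPM). Of 9 centriole and upstream genes compared 0 were higher or lower, and of 23 intraflagellar transport genes 2 were higher, Ift22 (2.01-fold) and Traf3ip1 (2.22-fold), a share near that of all genes. Among the members with a promoter entry, 0 of the 6 above the alveolar range held the X-box or its single arm, and 21 of the 39 others did. In the other motile cilium list, 5 of 14 genes above the range and 10 of 33 others held it. Foxj1, Lrrc6, Rsph1 and Rsph4a were above the range but had no promoter entry. The groups were set by the values of this tumoroid, and the difference in motif share was not tested.

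The change from organoid to tumoroid was read from the bronchiolar BASC cultures. Foxj1 was 2.09-fold higher in the tumoroid, the only member at least 2-fold higher (13.7% of all genes), and 42 members were at least 2-fold lower (14.4% of all genes), with a median of 12.7-fold over the 52. Dnah5 was at least 63.0-fold lower (8.46 against 0 CPM) and Hydin at least 33.7-fold (4.52 against 0 CPM). Rfx2, Rfx3, Cfap43, Rsph9, Cfap126, Zmynd10, Ccno, Myb and Tekt2 differed by less than 2-fold, Rfx2 and Tekt2 being higher in the tumoroid. These are 2 single libraries made on different platforms, so transplantation and platform cannot be told apart here.

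**Figure D5:**
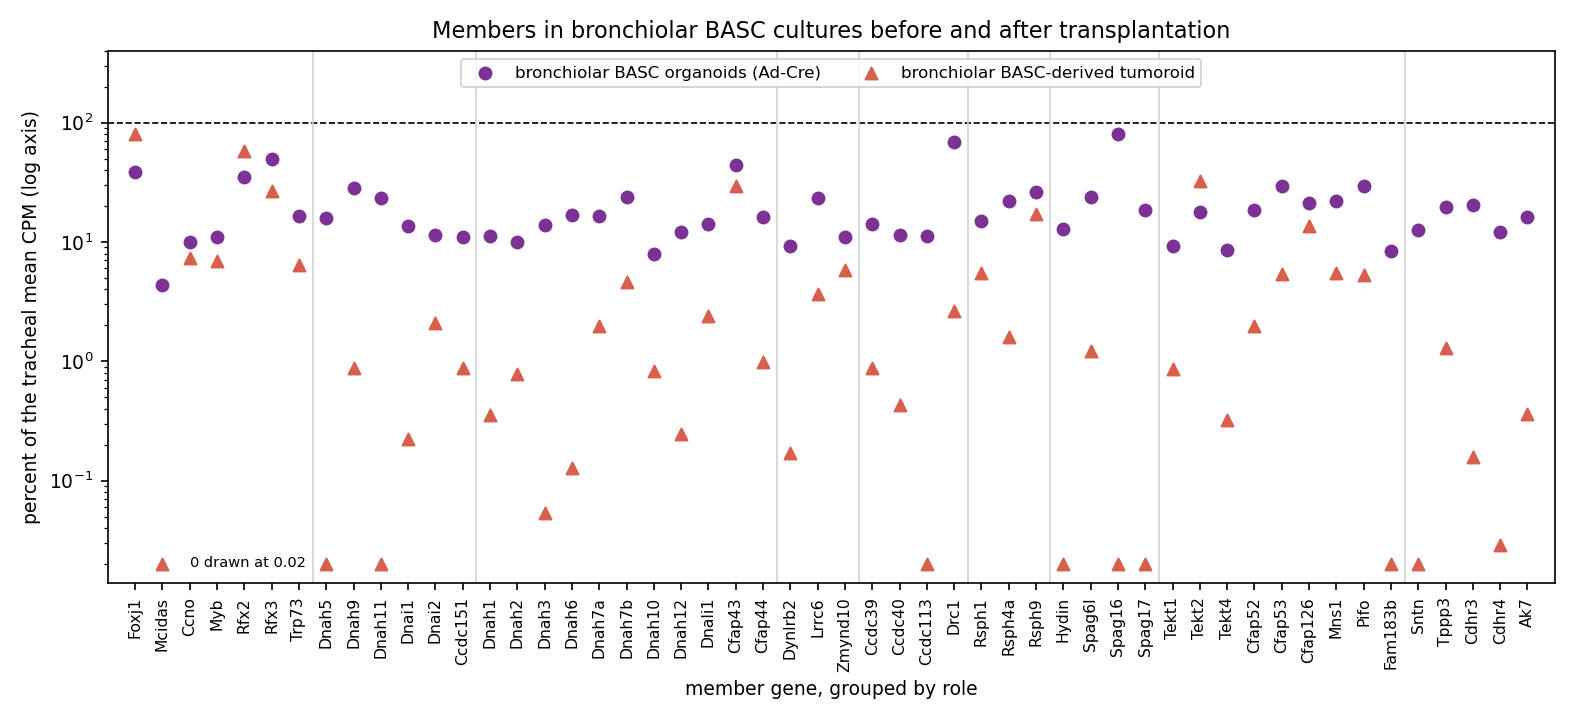
CPM of each member, as a percent of the mean of the 4 tracheal organoids (log axis), in the bronchiolar BASC Ad-Cre organoids (circles) and the bronchiolar BASC-derived tumoroid (triangles), with members grouped by role, values of 0 drawn at 0.02 and a dashed line at 100 percent. Foxj1 is at 38.4% in the organoids and 80.4% in the tumoroid, while the other members have medians of 16.1% and 0.881%.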

How the data were processed

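The authors trimmed reads with Trimmomatic 0.39, mapped them to Ensembl GRCm38 transcripts and deposited RSEM 1.3.2 expected counts and TPM per gene, and the submitters' processing notes also name STAR 2.6.1d. Of the 46603 genes, 46091 had a GENCODE vM21 symbol. Here expected counts were rounded and tested with edgeR 4.0.16 in R 4.3.3 (filterByExpr, TMM, quasi-likelihood test, Benjamini-Hochberg adjustment over all genes, called below 0.05), with DESeq2 1.42.0 as an alternative. The 10 organoids shared 1 fit of 3 groups. The Ad-Cre fit had the population as a block, since the paper describes dividing sorted cells into an Ad-GFP and an Ad-Cre aliquot. Correlations of deviations within pairs were 0.631, 0.771, 0.933 and 0.289. These deviations include differences between cell types, so they do not test whether a pair came from the same sort. Scores used log2 CPM with a prior count of 2. TPM served to order members by level, and the deposited FPKM was not used. Values in every sample are given for Foxj1. By role, the members with the highest and lowest tracheal TPM have tracheal and AT2 organoid values or bounds, and some have BASC or tumoroid values. From the other lists the 3 largest changes are named. A floor of 3 counts was used for folds against 0, which covers counting error alone. The fits were also run on simulated counts with changes placed in genes with high counts. That does not cover members near 0 counts or the spread among these cultures. The members and lists were chosen with earlier results of these data known.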

Additional observations from a re-analysis of the deposited data

Results flagged for a closer look

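Of 57 checks for a sample far from the rest of its group, 2 stood out, where chance alone would mark about 1 in 20. Dnah5 was at 0 counts in 5 of the 6 alveolar tumoroids and above 0 in mixed BASC-derived tumoroid 2, at -2.93 log2 CPM. Spag16 was above 0 only in mixed BASC-derived tumoroid 3 of the same 6, at -3.45 log2 CPM. In both cases the level was 0.083 CPM or lower, and every other tumoroid of the group was at 0.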

How the results depend on the processing

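With 1 culture left out at a time, the members called ranged from 0 to 47 for tracheal against AT2 organoids, from 0 to 49 for tracheal against BASC, from 0 to 48 for BASC against AT2, and from 0 to 51 for the difference of the Ad-Cre effect between distal and tracheal pairs. Single libraries thus decided the calls of the organoid comparisons, the AT2 cultures in the first. Calls over all genes are not given for these fits. The counts therefore describe how the calls depend on single cultures and are not a result about the members. For BASC against AT2, DESeq2 called 32 members (4429 genes over all) and edgeR without a filter 20, with the count over all genes not given. For the difference of the Ad-Cre effect DESeq2 called 12 members (137 genes over all). The Ad-Cre comparison without the replicate block for the sorted population also called 0 members (Foxj1 -0.62). The log2 difference of Foxj1 changed sign with single cultures left out for Ad-Cre against Ad-GFP (-0.63 to 0.0816), for NGFR- against NGFR+ (-0.10 to 0.11, and -0.0021 with at least 10 counts required in every sample) and for the difference of the Ad-Cre effect (-1.81 to 0.39). The score difference of tracheal minus AT2 organoids, 5.97, was 6.33 with a prior count of 0.5 and 3.69 on log2(TPM + 1), and that of BASC minus AT2, 4.46, was 2.38 on log2(TPM + 1). With 4-fold in place of 2-fold, 10 members in place of 17 differed in the bronchiolar tumoroid, and the share of all genes at 4-fold is not given. The call of Foxj1 was lost for tracheal against AT2 organoids without the Ad-GFP AT2 culture (adjusted p = 0.0588 by edgeR), and Foxj1 passed the threshold under 4 alternatives for BASC against AT2 and, without either AT2 culture, for the difference of the Ad-Cre effect. The other alternatives kept the direction and the side of the threshold, and counts within 1.5-fold.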

Other observations

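Over the 18 samples, log2 CPM of most members followed the mean of the other members closely. Pearson's r was highest for Sntn (0.994) and lowest for Cfap52 (0.505), Tekt2 (0.602), Rfx2 (0.805) and Foxj1 (0.854), while over the 10 organoids Foxj1 had an r of 0.98. These are descriptions, since the samples share platforms and cell types. Outside the cilium lists, the 10 genes of 14548 most like the score were 1700001C02Rik (0.9975), 3300002A11Rik, 1700028P14Rik, Rp1, Efcab6, ENSMUSG00000047490, Cfap97d2, Zfp474, Elmod1 and Zbbx (0.9962). All 10 had a tracheal mean between 3.14 and 10.2 CPM and were at 0 in the bronchiolar tumoroid. That tumoroid was among the 18 samples used to pick them, so low levels there follow from the choice.

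Of the 52 members 27 overlapped another gene, 25 of them on the opposite strand, and the sources used here do not state whether reads were counted by strand. Mns1 shared 51.3% of its 50-base words with Tex9 and Ccdc39 14.3% with Ttc14, so their levels may hold reads of those neighbors. Cfap43 overlaps Gsto1, which was at 1677 CPM in the tracheal mean.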
